A study of Mus musculus with 7 samples.

Results

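Igha encodes the constant region of the IgA heavy chain. It is described here with 5 genes of the antibody-secreting plasma cell: Jchain, Sdc1, Tnfrsf17, Xbp1 and Prdm1. Members are all probe sets whose platform annotation gives exactly 1 of these 6 symbols, which makes 14 of the 22626 probe sets and 6 of the 12393 genes on the array. Igha was selected on its measured signals: it was picked because they were partly restored on the arrays of mice given anti-ICOSL antibody from day 3. Its values are therefore a description without a test, and the other 5 genes are tested for whether they followed it.

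The study concerns acute graft-versus-host disease and the costimulatory pair ICOS and ICOSL. All recipients were female C57BL/6 (B6) mice aged 9 to 12 weeks that had been irradiated with 10.0 Gy and, 4 to 6 h later, received splenocytes by vein. The syngeneic group received B6 cells, and its label names no antibody. The 3 allogeneic groups received cells of C3H/HeN donors and differed in antibody: a control rat IgG (isotype, with no starting day stated), anti-ICOSL from day 0, or anti-ICOSL from day 3. Anti-ICOSL was given as 500 µg and then 200 µg every other day, and the isotype antibody is listed with the same 2 doses. The design text describes 4 mice per group per experiment. Spleen cells were taken on day 4, so the late schedule had run for only a day. There was 1 syngeneic array and there were 2 arrays of each allogeneic group. Both arrays of an allogeneic group were hybridised with combined RNA, so their spread may be technical and is all that the p-values measure. Donor strain differs between the syngeneic and the allogeneic groups and cannot be told apart from the allogeneic response.

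Plasma cells arise from activated B cells and release large amounts of antibody. Prdm1 (Blimp-1) is a transcription factor that shuts down the B cell programme, and Xbp1 is the transcription factor that expands the secretory apparatus. Jchain links IgA dimers and IgM pentamers. Sdc1 (CD138) is a surface proteoglycan used to identify plasma cells, and Tnfrsf17 (BCMA) is a receptor for survival signals. IgA is the main antibody class of mucosal surfaces, and spleen normally holds some IgA plasma cells. Prdm1, Xbp1 and Sdc1 are not limited to plasma cells: effector T cells use Prdm1, many secretory cells use Xbp1 and epithelia carry Sdc1. In RNA of whole spleen, fewer cells of a type and less RNA per cell cannot be told apart.

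Values are MAS5 signals on a linear scale. Array medians lay between 145.3 and 174.3, and the highest signal on each array between 52087 and 65729. RNA integrity, read as the Gapdh 3'/5' signal ratio, was 0.957 for syngeneic RNA and 0.767 to 0.865 for the allogeneic arrays. Of the 14 member probe sets, 12 passed the filter on low signal; the other 2, both of Sdc1, did not exceed 78.1 on any array. Cd79a, a signalling chain of the B cell receptor, read 4847 on the syngeneic array and 2078 to 4009 on the allogeneic ones, so B cell transcripts were present in every group of labelled splenocytes.

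Igha had 3 probe sets, and all were highest on the syngeneic array, next highest with day 3 and lowest with isotype and day 0. The brightest (1425763_x_at) read 46620 on the syngeneic array, 2446 and 1788 with isotype, 2698 and 2977 with day 0, and 15228 and 13681 with day 3. Probe set 1429381_x_at read 41823 on the syngeneic array, 1967 and 1937 with isotype, 2508 and 1904 with day 0, and 10235 and 8148 with day 3. Probe set 1421653_a_at read 36608, then 2442 and 1545, then 1814 and 1704, then 10040 and 8144 in the same order of groups. On each probe set both day 3 arrays lay above all 4 other allogeneic arrays and below the syngeneic array.

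As a share of the syngeneic signal, the Igha mean was 4.54%, 4.67% and 5.45% on the isotype arrays for the 3 probe sets. It was 6.09%, 5.27% and 4.81% on the day 0 arrays. It was 31.0%, 22.0% and 24.8% on the day 3 arrays. On the day 3 arrays Igha thus stood several-fold above isotype and well under the syngeneic level. On the scale of log2(signal + 50), on which all changes below are given, day 3 minus isotype was 2.76 ± 0.20, 2.20 ± 0.21 and 2.19 ± 0.25 (SE of the fit, n = 2 arrays per group), or 6.76, 4.59 and 4.56-fold. Day 3 minus day 0 was 2.33, 2.04 and 2.33. Igha ranked 1 of 8962 tested genes by its rise in each of these differences, which is how it came to be chosen. Day 0 and isotype differed little, and the sign depended on the probe set (0.43, 0.16 and −0.14). The 2 probe sets whose names end in _x_at hold probes that can also bind related sequences, and 1421653_a_at does not carry that mark.

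**Figure D1:**
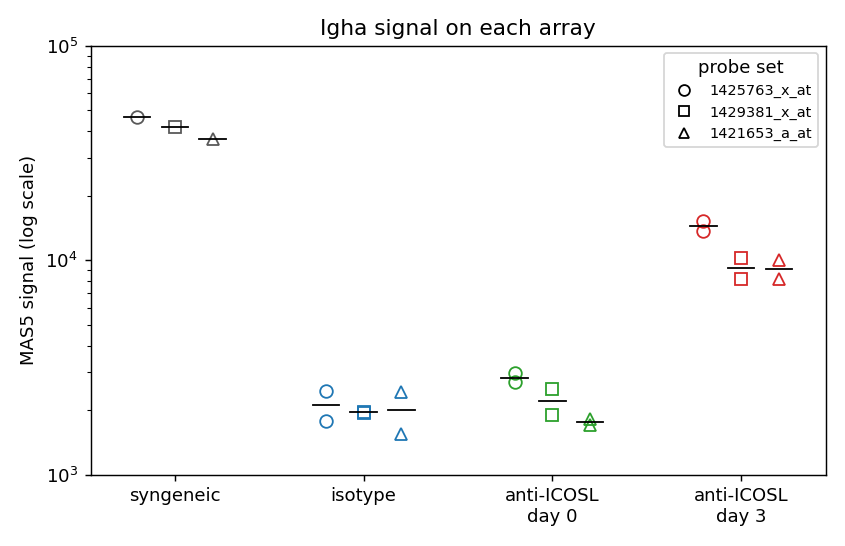
MAS5 signal of the 3 Igha probe sets on each of the 7 arrays (log scale), by group; marks are arrays and short bars are group means. The day 3 arrays lie between 8144 and 15228, the isotype and day 0 arrays between 1545 and 2977, and the syngeneic array between 36608 and 46620.

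Other immunoglobulin transcripts differed less than Igha between day 3 and isotype, while 1 Ighm probe set came close to Igha in the difference between isotype and syngeneic. This wider set was assembled after its values were seen and is described without a test. It holds all probe sets with a single symbol of a heavy or light chain segment, 42 in all, of which 29 besides Igha passed the filter. For isotype against syngeneic, 24 of the 29 were lower and 5 higher (median −0.64, against −0.01 for all genes). Isotype arrays lay wholly below the syngeneic array for 22 and wholly above for 5, against 38.8% and 38% of all tested probe sets. For day 3 against isotype, 23 were higher and 6 lower. The median was 0.17, against 0.04 for all genes, and the range −0.53 to 0.90. All lay below the smallest Igha difference of 2.19, but Igha was picked for its rise here, which largely fixed that order. Day 3 arrays lay wholly above the isotype arrays for 14 of the 29 and wholly below for 3. Over all tested probe sets that share was 24.3% above and 18.8% below. Several of the 14 are probe sets of the same gene, Ighm. Of these, 1451949_at passed the filter on low signal only through its day 3 mean (128), so the filter favours its rise.

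The IgM heavy chain gene Ighm shows how probe sets differ. Its brightest probe set (1427351_s_at) read 63226 on the syngeneic array, 49414 and 49956 with isotype, 45097 and 48874 with day 0, and 50662 and 51874 with day 3. These signals are the highest or nearly the highest on the arrays, and whether they are limited by the scanner was not tested. The Ighm probe set 1425385_a_at read 2516 on the syngeneic array, 148 and 104 with isotype, 163 and 173 with day 0, and 150 and 109 with day 3. Its difference of isotype from syngeneic was −3.87, against −4.45 to −4.20 for Igha, but its day 3 arrays overlapped the isotype arrays. Probe set 1425247_a_at, at 510 on the syngeneic array, had the largest day 3 difference of the 29, with 744 and 901 against 414 and 418 with isotype.

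Iglv1, a lambda light chain segment, was the 1 of 5 tested genes on the fixed list of immunoglobulin chains that fell for isotype against syngeneic. Over all tested probe sets limma called 6.62% there. Iglv1 changed by −2.21 ± 0.19 (probe set 1430523_s_at, adjusted p = 0.00313 by limma). It read 19151 on the syngeneic array, 4274 and 3936 with isotype, 4194 and 4402 with day 0, and 5863 and 6116 with day 3. The day 3 arrays stood above the other allogeneic arrays, but the difference from isotype was 0.54 and did not pass (adjusted p = 0.398 by limma).

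**Figure D2:**
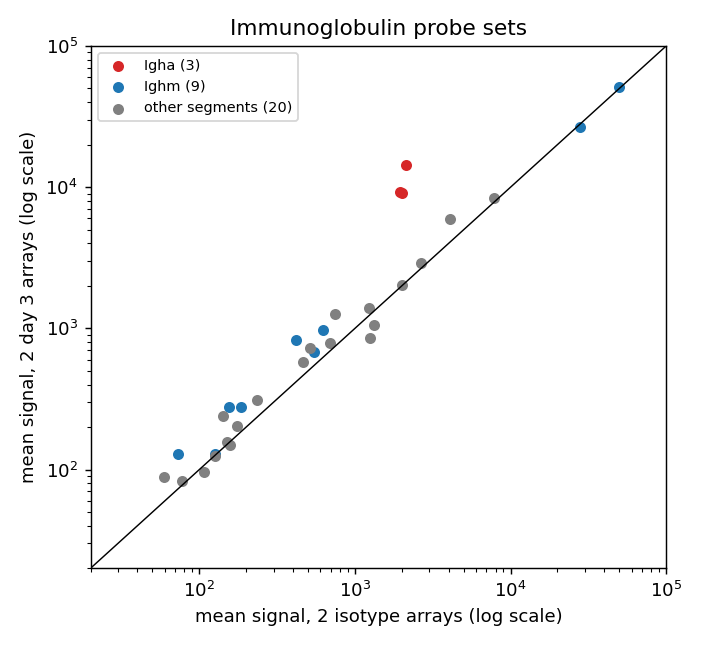
Mean MAS5 signal on the 2 day 3 arrays against that on the 2 isotype arrays (both log scale) for 32 tested immunoglobulin probe sets, with equal values on the line. The 3 probe sets of Igha, a gene picked for its day 3 signals, stand apart above the line. The others lie near it, within a log2 difference of −0.53 to 0.90.

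Jchain, the joining chain that IgA dimers need, was lower on every allogeneic array. Its signal was 11834 on the syngeneic array, 5616 and 6268 with isotype, 5439 and 5999 with day 0, and 6114 and 7318 with day 3. Isotype arrays stood at 50.2% of the syngeneic signal, against 4.54% to 5.45% for Igha. The change for isotype against syngeneic (−0.99 ± 0.22) lay at the threshold without passing it (adjusted p = 0.0501 by limma). It passed under 4 of 15 alternative settings, and adjusted p ran from 0.00112 to 0.146 over them.

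The plasma cell surface genes were also lower with isotype, at low signals. Sdc1 (1415943_at) read 359 on the syngeneic array, 144 and 119 with isotype, 207 and 171 with day 0, and 155 and 243 with day 3. Its change for isotype against syngeneic was −1.17 ± 0.27 (adjusted p = 0.0595 by limma), which passed under 3 of 15 settings (adjusted p 0.0186 to 0.167). A second Sdc1 probe set (1415944_at) lay between 21.9 and 32.0 on 6 arrays and at 264 on the second day 3 array. Tnfrsf17 read 142 on the syngeneic array, 52.0 and 57.7 with isotype, 127 and 109 with day 0, and 34.4 and 52.0 with day 3. Its change for isotype against syngeneic was −0.88 ± 0.22 (adjusted p = 0.0681 by limma). Among the allogeneic arrays those of day 0 were the high ones, and the day 3 arrays overlapped the isotype arrays.

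Of the transcription factors, Prdm1 passed and Xbp1 did not. Xbp1 passed in no comparison, and its brightest probe set (1420886_a_at) read 9667 on the syngeneic array, 7723 and 10274 with isotype, 10656 and 10470 with day 0, and 11592 and 11869 with day 3. The syngeneic value lay between the isotype arrays (−0.12, 95% confidence interval −0.68 to 0.44). The probe sets 1437223_s_at and 1420011_s_at changed by 0.05 and −0.05 for isotype against syngeneic, and the dim 1420012_at by 0.76 (adjusted p = 0.157 by limma). Prdm1 was the only one of the 5 genes to pass. It rose from 268 on the syngeneic array to 805 and 793 with isotype, and read 1035 and 930 with day 0 and 869 and 939 with day 3. Its change was 1.41 ± 0.20 (adjusted p = 0.0128 by limma). This call ended without isotype array 2 (adjusted p = 0.0512) and when only the isotype and syngeneic arrays were fitted (adjusted p = 0.0701).

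**Figure D3:**
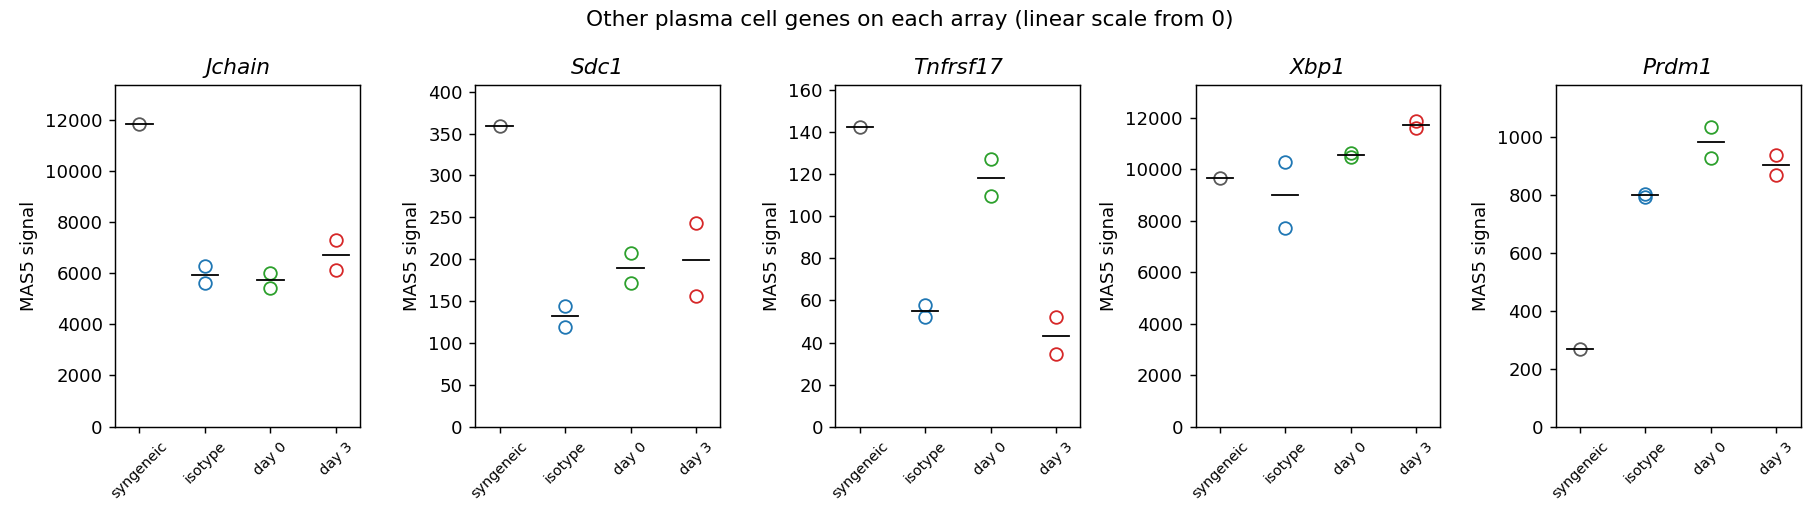
MAS5 signal (linear scale from 0) of the brightest probe set of 5 plasma cell genes on each array; circles are arrays and short lines are group means. Jchain, Sdc1 and Tnfrsf17 are highest on the syngeneic array, Prdm1 is lowest there, and Xbp1 lies between 7723 and 11869 throughout.

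Read as a group, 1 of the 5 genes was called for isotype against syngeneic, and it moved up; over all 15372 tested probe sets limma called 6.62% in either direction. Isotype arrays lay wholly above the syngeneic array for 1 of the 5 genes, wholly below for 3 and on both sides for 1, where 76.9% of all tested probe sets lay to 1 side (38% above and 38.8% below). At an unadjusted p under 0.05 there were 5 of the 9 tested probe sets, against 23% of all. The median change of the 5 genes was −0.88, against −0.01 for all 8962 tested genes. These 5 genes thus did not move in 1 direction. Cell type markers that can carry the same genes moved as well. The 12 effector T cell genes had a summed signal of 13100 on the syngeneic array and 50497 to 58574 on the allogeneic arrays, 10 of the 12 rose for isotype against syngeneic, and none was at 0. Their part in the Prdm1 rise was not tested.

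For day 3 against isotype, the comparison in which Igha was high, limma called 0 of the 9 tested probe sets of the 5 other genes. At an unadjusted p under 0.05 there were also 0 of 9, and over all tested probe sets limma called 0% with 1573 of 15372 (10.2%) under that unadjusted value. Jchain changed by 0.17 ± 0.18 (adjusted p = 0.766 by limma), with a 95% confidence interval of −0.26 to 0.60. Prdm1 changed by 0.17 (interval −0.22 to 0.55) and Tnfrsf17 by −0.18 (interval −0.60 to 0.25). Xbp1 changed by 0.40 (interval −0.06 to 0.85) on its brightest probe set, and Sdc1 by 0.44 (interval −0.10 to 0.97). On these main probe sets of the 5 genes every interval ended below 1. The smallest Igha difference was 2.19, but Igha was picked for this rise, so the gap is no test. Among all 9 tested probe sets the interval reached above 1 only for Sdc1 1415944_at, at 1.12 with an interval of −0.25 to 2.48. Its difference comes from the second day 3 array alone. It also passed the filter on low signal only through that array, so its value is a description.

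Both day 3 arrays lay above both isotype arrays for 3 of the 5 genes (Prdm1, Xbp1 and Sdc1) and for none below. Over all tested probe sets the arrays did not overlap for 43.1%, of which 24.3% were higher. The median change of the 5 genes was 0.17, against 0.04 for all genes. Epithelia and exocrine pancreas can also carry Sdc1 or Xbp1, and their marker genes were summed on each array. The 4 tested epithelial genes summed to 225 on the syngeneic array, 338 and 383 with isotype, 373 and 547 with day 0, and 550 and 834 with day 3. Of these, Krt8 and Cldn4 passed the filter on low signal only through their day 3 means (190 and 142). The filter thus favours a high day 3 sum. Among the allogeneic arrays the second day 3 array was highest in this sum and in Sdc1, whereas the syngeneic array was lowest in the sum and highest in Sdc1. The 16 exocrine pancreas genes, from a tissue rich in Xbp1, summed to 7775 on the syngeneic array, 4431 and 4284 with isotype, 1865 and 2477 with day 0, and 2612 and 3105 with day 3. The pancreas sum was lower with day 3 than with isotype, and the brightest Xbp1 probe set was higher. None of the tested markers in these lists was at 0. The part of epithelial RNA in the Sdc1 values and that of pancreas RNA in the Xbp1 values were not tested.

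**Figure D4:**
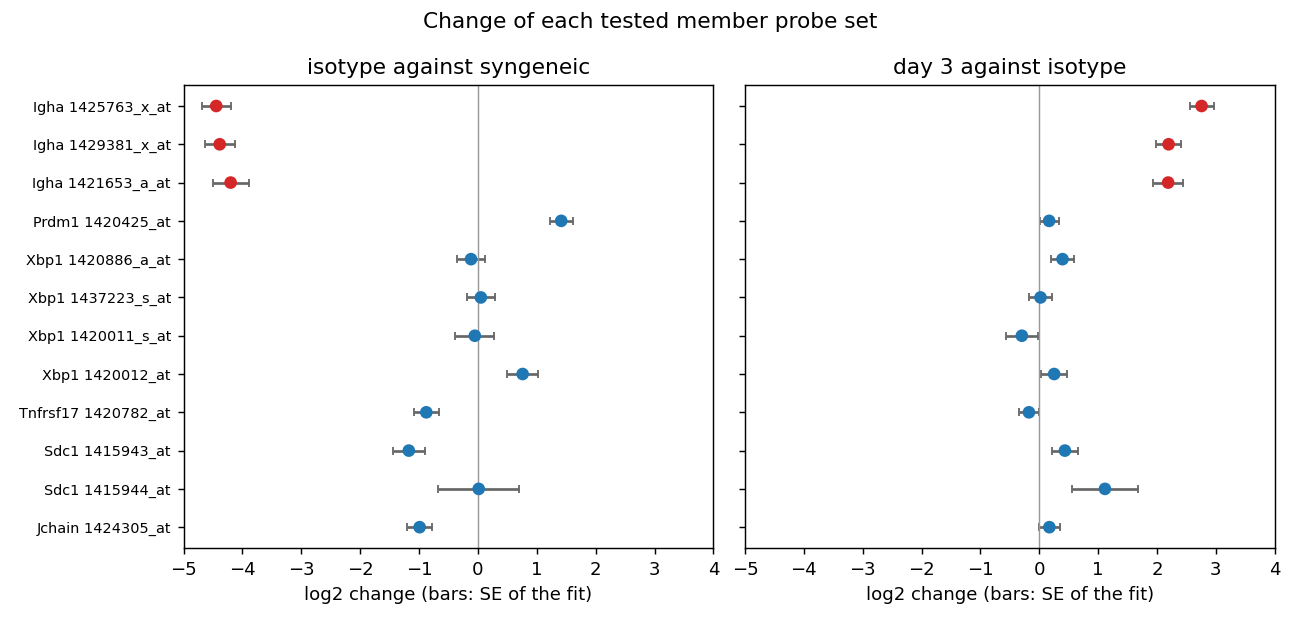
Log2 change of the 12 tested member probe sets for isotype against syngeneic (left) and day 3 against isotype (right), with the SE of the fit as bars. The Igha probe sets lie at −4.45 to −4.20 on the left and at 2.19 to 2.76 on the right, the rise for which Igha was picked. All other members lie between −1.17 and 1.41 in both panels.

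For day 0 against isotype, limma called 0 of the 9 probe sets, with 2 of 9 at an unadjusted p under 0.05, and 0% of all probe sets (1103 of 15372, 7.18%, at that unadjusted value). Those 2 were Tnfrsf17 (0.68 ± 0.18, adjusted p = 0.578 by limma) and Xbp1 1420012_at (0.59, adjusted p = 0.680 by limma). Tnfrsf17 stood at 83.1% of the syngeneic signal with day 0, 38.5% with isotype and 30.3% with day 3. Jchain changed by −0.05 (interval −0.48 to 0.37). Day 0 arrays lay above isotype arrays for 4 of the 5 genes, where 35.5% of all tested probe sets did not overlap and 19.4% were higher. For none of the 5 did they lie below, as 16.2% of all did. This comparison and that of day 3 share the isotype arrays.

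Compared directly, day 3 and day 0 gave no call among the 9 probe sets or over the array (0%; by limma, 1043 of 15372, 6.79%, had an unadjusted p under 0.05). The 1 member probe set under that value was Tnfrsf17, which was 0.86 lower on the day 3 arrays (interval −1.28 to −0.43, adjusted p = 0.542 by limma). Igha differed between the schedules in the other direction, by 2.04 to 2.33. Jchain was 0.23 higher on the day 3 arrays (interval −0.20 to 0.65), and Prdm1 0.11 lower (interval −0.50 to 0.27). Both Jchain and Xbp1 had day 3 arrays that did not overlap the day 0 arrays, and Tnfrsf17 had them below. Of all tested probe sets 39% did not overlap, 20.4% higher and 18.6% lower.

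Further genes of the plasma cell programme came from fixed lists. Of 17 tested plasma cell genes besides the members, 4 rose and 1 fell for isotype against syngeneic (median 0.29), where limma called 6.62% of all tested probe sets and the median over all genes was −0.01. Irf4, a factor that B cells and activated T cells need for terminal differentiation, rose from 542 to 1335 and 1061 (1.07 ± 0.23, adjusted p = 0.0453 by limma). That call ended in 11 of 15 settings, among them any 1 allogeneic array left out (adjusted p up to 0.112), and reached 0.146 when only the compared groups were fitted. It was named after its values were seen. The others that rose were Cd28, a costimulatory receptor (1.75, adjusted p = 0.0156), Gldc, a glycine-cleaving enzyme (1.67, adjusted p = 0.0172), and Zbp1, a nucleic acid sensor (1.09, adjusted p = 0.0277). Gldc read 8.41 on the syngeneic array and passed the filter on low signal only through the allogeneic groups, so the filter favours such a rise. Trp53inp1, a target of p53, fell (−1.72, adjusted p = 0.0329). All 5 calls are by limma, and each ended in some of the alternative settings. The call of Zbp1 ended whichever allogeneic array was omitted (up to 0.0828), that of Trp53inp1 without either isotype or either day 3 array (up to 0.105), and that of Gldc without either isotype array (up to 0.0684). That of Cd28 ended when only the compared groups were fitted (0.0699). Both Cd28 and Zbp1 are also expressed by activated T cells. For day 3 against isotype 0 of the 17 passed in limma, 6 were higher and 11 lower (median −0.10). At an unadjusted limma p under 0.05 there were also 0 of the 17, against 10.2% of all tested probe sets.

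The protein-folding and secretion apparatus that Xbp1 serves was tested as 35 genes. For isotype against syngeneic, 1 of them passed, where limma called 6.62% of all tested probe sets. Manf, a folding factor of the endoplasmic reticulum, rose from 1414 to 3742 and 3434 (1.31 ± 0.25, adjusted p = 0.0338 by limma). That call ended whichever allogeneic array was omitted (adjusted p up to 0.0978). Of the 35, 29 were higher, with a median of 0.42 against −0.01 for all genes. For day 3 against isotype, 20 were higher and 15 lower, the median was 0.03 and none passed in limma. An unadjusted limma p under 0.05 was found for 1 of the 35, against 10.2% of all tested probe sets.

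B cell identity genes differed from Igha on the day 3 arrays. For isotype against syngeneic, 2 of 16 fell, where 6.62% of all tested probe sets were called in either direction. The signal was lower for 15 of the 16 (median −0.65) and wholly below the syngeneic array for 14, as for 38.8% of all. Those that fell were Fcer2a, the IgE receptor CD23, by 2.08 on the log2 scale (adjusted p = 0.0163 by limma) and Spib, a B cell transcription factor, by 1.05 (adjusted p = 0.0430 by limma). The Spib call ended whichever allogeneic array was omitted (adjusted p up to 0.118), and that of Fcer2a without isotype array 1 (0.0524). For day 3 against isotype 13 of 16 were lower, with the day 3 arrays wholly below for 11 (median −0.40), against 18.8% of all tested probe sets wholly below and a median of 0.04 over all genes. None passed in limma (5 of 16 had an unadjusted p under 0.05, against 10.2% of all tested probe sets). Summed over the 16 genes the signal was 36808 on the syngeneic array, 25343 and 23359 with isotype, 18557 and 17081 with day 0, and 17498 and 16984 with day 3. The day 3 arrays thus held the highest allogeneic Igha signal together with B cell signal that was lower than on both isotype arrays and overlapped that of day 0.

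Genes for IgA switching, plasma cell survival and antibody transport made up a list of 22, of which 15 were tested. For isotype against syngeneic 1 rose and 2 fell, where limma called 6.62% of all tested probe sets. Il21, a cytokine that drives plasma cell formation, rose from 4.43 to 337 and 503 (3.09 ± 0.33, adjusted p = 0.00563 by limma). Ccr9, a gut-homing receptor, fell from 178 to 38.7 and 33.5 (−1.40, adjusted p = 0.0278 by limma). Ccr9 passed the filter on low signal only through the syngeneic array, so the filter favours such a fall. Il21 passed it only through the allogeneic groups, so the filter favours such a rise. Tgfbr1, a receptor for the cytokine TGF-beta that directs switching to IgA, fell from 923 to 322 and 299 (−1.43, adjusted p = 0.0323 by limma). The calls of Ccr9 and Tgfbr1 ended in 6 of 14 and 8 of 15 settings, among them either isotype array left out (up to 0.0953 and 0.105). They also ended without day 3 array 1 (0.0512 and 0.0546), and that of Tgfbr1 without day 3 array 2 (0.0532). On the day 3 arrays 13 of the 15 were higher than with isotype, 7 of them without overlap (median 0.18), against 24.3% of all tested probe sets and a median of 0.04 over all genes. None passed in limma (2 of 15 had an unadjusted p under 0.05, against 10.2% of all tested probe sets). The macrophage list, cells that can feed plasma cell survival, was tested as 14 genes. All 14 fell for isotype against syngeneic (median −2.54), where 6.62% of all tested probe sets were called. Against isotype, 13 were higher with day 3, 12 of them without overlap (median 0.47), and 14 with day 0, all without overlap (median 0.65). Of all tested probe sets 24.3% and 19.4% were higher without overlap in these comparisons, which share the isotype arrays. With day 3, 11 of the 14 were lower than with day 0 (median −0.25), and limma called none of the 14 in these 3 comparisons. In limma 9, 10 and 2 had an unadjusted p under 0.05, against 10.2%, 7.18% and 6.79% of all tested probe sets. Macrophage genes were above isotype on the day 0 arrays too, and the sign of the day 0 Igha difference depended on the probe set. The part of macrophages in the Igha values was not tested.

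**Figure D5:**
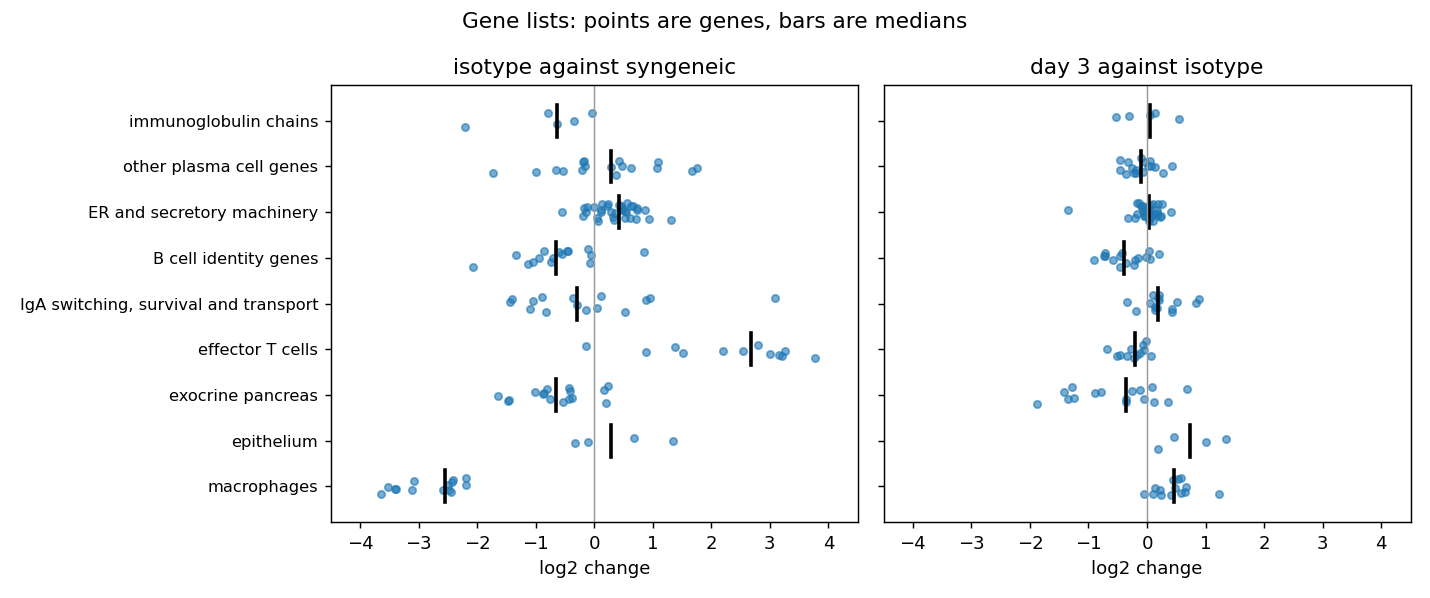
Log2 change of each tested gene (points) of 9 fixed lists, with the list median as a bar, for isotype against syngeneic (left) and day 3 against isotype (right). Macrophage genes lie lowest (median −2.54) and effector T cell genes highest (median 2.67) on the left. Medians on the right lie between −0.40 and 0.73, the highest being that of epithelium, which the filter on low signal favours.

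The genes with a pattern most like Igha were sought by Pearson's r of log2(signal + 50) with its brightest probe set, among genes that spanned at least 1 log2 unit. Over the 7 arrays and 3148 such genes, the highest were Atpif1 (r = 0.991), an inhibitor of mitochondrial ATP synthase, Rnf41 (0.988), a ubiquitin ligase, Slc29a3 (0.986), a nucleoside transporter, Mt2 (0.961), a metallothionein, Rgcc (0.960) and Slc46a3 (0.953). Atpif1 read 1406 on the syngeneic array, 588 and 500 with isotype, 584 and 535 with day 0, and 1065 and 995 with day 3. Over the 6 allogeneic arrays and 1802 genes, Atpif1 came first again (0.986), followed by Msmb, Kcna1, Card14, Pth2 and Spata5 (0.974 to 0.963). Of these, Msmb and Kcna1 read under 25 on all isotype and day 0 arrays. Msmb, Kcna1 and Card14 passed the filter on low signal only through their day 3 means, so the filter favours their likeness to Igha. With so few arrays, 6 and 8 genes exceeded an r of 0.95 in these searches, and the values are a description.

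The same measure was taken for the main probe set of each plasma cell gene. Over the 7 arrays r was 0.826 for Jchain, 0.788 for Sdc1, 0.302 for Xbp1, 0.110 for Tnfrsf17 and −0.677 for Prdm1. Over the 6 allogeneic arrays, which leave out the syngeneic one, r was 0.634 for Xbp1, 0.609 for Jchain, 0.508 for Sdc1, 0.214 for Prdm1 and −0.540 for Tnfrsf17. The negative value of Tnfrsf17 goes with its high day 0 arrays, since its day 3 and isotype arrays overlapped. These r values rest on few arrays and on the Igha signals for which Igha was chosen.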

How the data were processed

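The deposited values are MAS5 signals, a linear intensity for each probe set. MAS5 is named in the submitters' processing notes without a version, and 10 µg of RNA went into each array, per the labels' protocols. Of 22690 probe sets 64 controls were removed. Of the other 22626, 20380 carry 1 symbol in the platform annotation, 691 several and 1555 none, and only those with 1 are named. The analysis used log2(signal + 50), which understates changes of dim genes. A probe set entered the test if a group mean was at or above 99.7, the 40th percentile of signals (15372 did). Limma 3.58.1 in R 4.3.3 fitted all 7 arrays at once (3 residual and 3.36 prior degrees of freedom), taking the syngeneic array to be as variable as the rest. P-values are two-sided with Benjamini-Hochberg adjustment over all tested probe sets and a threshold of 0.05, and intervals are 95%. The procedure was run on simulated data for day 3 against isotype only, which does not cover the calls for isotype against syngeneic. List genes are represented by their probe set of highest mean.

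The number of arrays limits the precision. Members and lists were chosen with earlier results of these data known. Every member probe set that was tested could be named, with up to 4 genes per list that passed (by size of change), up to 2 otherwise, and the 6 genes most like Igha in each search. Irf4, Cd79a and the probe sets of Ighm were chosen after their values were seen. Settings varied 1 at a time were the pseudocount (16, 100), the low-signal filter (60th percentile, none), quantile or median normalization, replicate number as a block, fitting only the compared groups, limma's trend and robust options, and omission of single arrays. Sequences and coordinates are not used here.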

Additional observations from a re-analysis of the deposited data

How the results depend on the processing

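The count of plasma cell genes called for isotype against syngeneic (1, Prdm1) moved with the processing. It was 3 with a pseudocount of 100, 3 with the filter at the 60th percentile, 2 after quantile normalization, 3 with the trend and robust options, 0 when only the compared groups were fitted, and 0 to 1 with 1 array left out (0 without isotype array 2). The cause was not tested. In the other 3 comparisons it was 0 under every setting run. The Igha difference of day 3 from isotype, on its brightest probe set, lay between 2.54 and 2.98. Replicate numbers did not pair the arrays (correlations of deviations −0.012, 0.075 and 0.044); with the replicate block the count called was 1 and the Igha difference 2.76, and over all probe sets 798 were called against 1017.

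Over all probe sets the isotype count was 1616 with the 60th percentile filter, 542 without a filter, 311 with only the compared groups, 1786 with trend and robust options and 410 to 692 with 1 array left out. The main setting called 0 in the comparisons of day 0 with isotype, of day 3 with isotype and of both schedules. In that order a pseudocount of 100 called 3, 2 and 6, the stricter filter 13, 8 and 7, and trend and robust options 21, 5 and 12.

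Some small uncalled log2 changes of members turned sign, and the cause was not tested. After quantile normalization Xbp1 1437223_s_at was −0.0144 and Sdc1 1415944_at −0.0123 for isotype against syngeneic, and Jchain 0.0042 for day 0 against isotype. After median centring Xbp1 1437223_s_at was −0.0793 for day 3 against isotype, Xbp1 1420011_s_at 0.0369 for isotype against syngeneic and Sdc1 1415943_at −0.0132 for day 3 against day 0. With 1 array left out, isotype against syngeneic ran from −0.3219 to 0.0875 for Xbp1 1420886_a_at, −0.1285 to 0.2283 for 1437223_s_at, −0.2954 to 0.1906 for 1420011_s_at and −0.0288 to 0.0564 for Sdc1 1415944_at. Day 0 against isotype ran from −0.252 to 0.1048 for Xbp1 1437223_s_at, −0.3397 to 0.2709 for 1420011_s_at and −0.1329 to 0.0242 for Jchain. Day 3 against isotype ran from −0.1574 to 0.1993 for Xbp1 1437223_s_at. Day 3 against day 0 ran from −0.01 to 0.1992 for that probe set, −0.5669 to 0.0437 for 1420011_s_at and −0.2146 to 0.2959 for Sdc1 1415943_at. Tnfrsf17 and Sdc1 1415944_at were not tested under the stricter filter, and Sdc1 1415944_at was also not tested without day 3 array 2. Dim probe sets such as those of Tnfrsf17 and Sdc1, and the array number, limit these values.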
